A study of Mus musculus with 12 samples.

Results

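The lysosomal gene group consists of 43 mouse genes, namely 12 proteases, 11 glycosidases and sulfatases, 6 lipid enzymes or lipid-binding proteins, 7 membrane proteins, 6 subunits or partners of the proton pump and the transcription factor Tfeb. Its members were found by gene symbol, which gave 93 of the 45281 probes of the array, 64 of them detected often enough to be tested. Probes were tested where 3 or more of the 12 arrays had detected them (detection p under 0.05). Such a probe was present for 37 of the 43 members, out of 10340 named genes in all.

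The cells were PKSV-PCT, an immortalized line of the mouse proximal convoluted tubule, transfected with a plasmid that expresses human sex hormone-binding globulin (SHBG) from the cytomegalovirus promoter. One subline made the S42L mutant, in which steroid binding could not be measured, and the other the wild-type protein, each given 100 nM 5α-dihydrotestosterone (DHT) or 100 nM testosterone for 24 h. This gave 4 groups of 3 arrays, S42L with DHT, wild-type with DHT, S42L with testosterone and wild-type with testosterone. All groups grew in medium with dexamethasone, insulin, triiodothyronine and EGF, and none was without androgen. The lines were cloned and no separate clones of a variant are named, so the effect of the variant cannot be told apart from that of the clone, nor from position on the chip, where S42L arrays always took the first 3 places. A period of 3 days in steroid-free medium is also given, in wording that leaves its order relative to the hormone unclear. Nothing in the labels states that the replicates came from separate cultures. The p-values therefore reflect the spread among these 12 samples alone, and that spread may be technical.

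Lysosomes degrade protein, glycans and lipids that arrive by endocytosis or autophagy. Their soluble enzymes work at a low pH that the vacuolar proton pump maintains, and glycosylated membrane proteins line the organelle. In the proximal tubule, filtered proteins taken up from the lumen end in this compartment. Many lysosomal genes are bound by TFEB at a palindromic motif with the core CACGTG.

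That motif was looked for in the promoters of the members as a description only. RefSeq promoter windows (build GRCm38.p6, 250 bases before to 50 after a gene's start) were at hand for 37 of the 43 members. TCACGTGA, which reads the same on both strands, occurred in the windows of 6 of those 37 genes (16.2%), against 0.974% of all 32851 windows. CACGTG, which lies inside it, occurred in 13 of 37 (35.1%), against 7.15% of all windows. The androgen and glucocorticoid receptor half-site AGAACA, on either strand, occurred in 7 of 37 (18.9%), against 19% of all windows. A gene can have several windows, so shares per gene and per window are not fully alike. Since many lysosomal genes are bound at the TFEB motif, its excess over all windows does not bear on the difference between the lines. The 4 windows below are shown because they set 2 genes that were higher in S42L cells and carry TCACGTGA (Ctsa and Atp6v1a) beside one that carries it and was not called (Ctsd) and one that was higher and has neither form (Tpp1). Another window of Ctsa, not shown, holds neither form. Capitals mark CACGTG or TCACGTGA, and each sequence is written along its gene.
Ctsa, chr2:164833523-164833822, strand +: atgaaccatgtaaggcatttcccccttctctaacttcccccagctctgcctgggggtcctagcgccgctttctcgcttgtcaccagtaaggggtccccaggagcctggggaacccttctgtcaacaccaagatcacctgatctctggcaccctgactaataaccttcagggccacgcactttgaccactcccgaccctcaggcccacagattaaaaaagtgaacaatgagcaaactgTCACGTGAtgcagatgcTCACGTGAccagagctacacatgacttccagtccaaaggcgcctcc
Atp6v1a, chr16:44139210-44139509, strand -: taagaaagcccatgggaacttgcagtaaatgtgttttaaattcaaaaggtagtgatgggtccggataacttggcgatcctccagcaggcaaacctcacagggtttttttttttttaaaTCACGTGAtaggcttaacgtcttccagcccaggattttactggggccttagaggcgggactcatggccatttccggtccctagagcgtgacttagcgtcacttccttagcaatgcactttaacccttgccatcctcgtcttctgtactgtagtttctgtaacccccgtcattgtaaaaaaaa
Ctsd, chr7:142387778-142388077, strand -: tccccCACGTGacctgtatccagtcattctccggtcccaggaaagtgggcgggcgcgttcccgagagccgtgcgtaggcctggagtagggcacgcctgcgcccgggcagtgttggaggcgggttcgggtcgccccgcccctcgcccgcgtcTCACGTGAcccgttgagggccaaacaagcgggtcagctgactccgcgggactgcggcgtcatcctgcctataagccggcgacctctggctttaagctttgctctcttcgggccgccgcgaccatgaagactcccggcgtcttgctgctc
Tpp1, chr7:105752186-105752485, strand -: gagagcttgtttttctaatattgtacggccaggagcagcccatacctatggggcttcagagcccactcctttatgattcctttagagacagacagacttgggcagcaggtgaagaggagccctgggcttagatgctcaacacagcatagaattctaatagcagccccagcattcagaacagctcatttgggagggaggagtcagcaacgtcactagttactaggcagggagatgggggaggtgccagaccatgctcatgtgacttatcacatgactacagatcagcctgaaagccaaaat
CACGTG was found in 8 of the 18 members with a window that were called higher in S42L cells. It was found in 5 of the 19 others, namely the uncalled Ctsd, Glb1 and Lgmn and the unmeasured Ctsf and Gla. Unmeasured members have no call and stand on neither side of it. TCACGTGA was found in 4 of the 18 and 2 of the 19 (Ctsd and the unmeasured Gla). AGAACA was found in 4 of the 18 and 3 of the 19 (Ctsc and the unmeasured Ctsk and Ctss). A match is a description of these letters and no measure of binding.

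The comparison of S42L with wild-type cells, taken as the mean of the differences under the 2 androgens, asks what the loss of steroid binding by SHBG goes with. Most members that differed were higher in S42L cells. The members were chosen with earlier results of these data known, so their called share describes this list only. Among 41 other measured lysosomal genes the called share was 39%. Of 37 measured members, 19 were higher, 2 were lower and 16 were not called at an adjusted p under 0.05 in limma, which is 56.8% called, against 37.8% of all 19480 tested probes. Among all tested probes 18.6% were higher and 19.3% lower. The median log2 change (S42L minus wild-type) of the members was 0.24, with 27 above 0, and that of all named genes was -0.00546, with 49.4% above 0. Probes detected on every array are called more often. Of the 35 members of that kind 60% were called, against 43.2% of the 8436 named genes of that kind. In 14 of the 37 members the 6 S42L arrays did not overlap the 6 wild-type arrays, against 19.7% of all tested probes. Scaled to the median of all probes, the members split into 19 higher and 1 lower with 69.9% of all called probes higher, and scaled to the median of tested probes into 14 higher and 5 lower with 39.2% higher, against 49.1% with quantile normalization. A called change of at least 0.5 on the log2 scale was seen in 6 members, all higher, against 8.91% of all tested probes higher by as much and 16% in either direction.

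**Figure D1:**
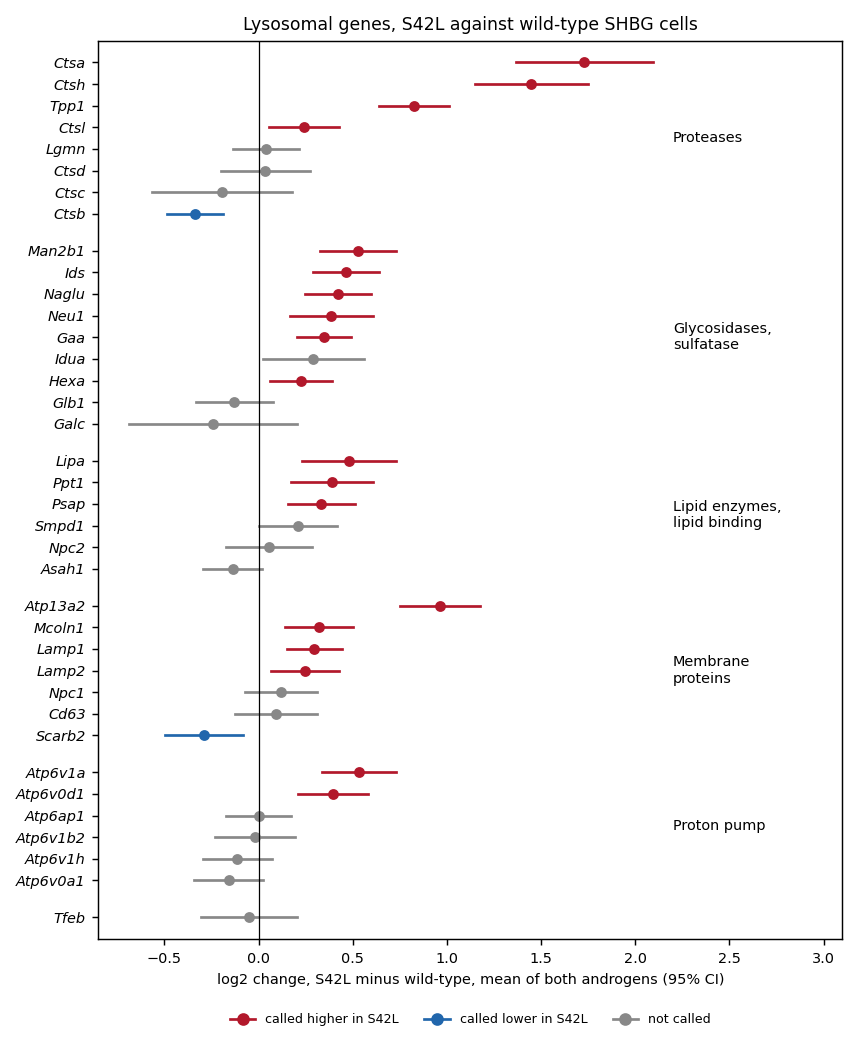
Log2 change between S42L and wild-type cells for the 37 measured lysosomal genes, by role (point, mean over both androgens from 6 arrays against 6; line, 95% confidence interval). Ctsa, Ctsh, Atp13a2 and Tpp1 lie farthest to the right, at 0.82 or more, and only Ctsb and Scarb2 were called lower.

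Of the 8 proteases measured, 4 were higher in S42L cells and 1 was lower (62.5% called, against 37.8% of all tested probes). Their median log2 change was 0.14. Ctsa encodes cathepsin A, a serine carboxypeptidase that also protects β-galactosidase and neuraminidase from degradation. Its normalized log2 signals were 9.91, 9.88 and 9.99 in S42L cells with DHT, against 8.35, 8.36 and 7.96 in wild-type cells with DHT. Under testosterone they were 9.85, 9.74 and 9.67 in S42L cells, against 8.10, 8.57 and 7.33 in wild-type cells. Every S42L array was above every wild-type array, and the wild-type testosterone arrays were the most spread. The log2 change was 1.73 ± 0.17 (SE, adjusted p = 7.14e-06), or 3.32-fold. The 4 other tested Ctsa probes gave 0.85, 0.82, 0.54 and 0.38, of which the first 2 were called higher, and the 3 dimmest were detected on 7, 6 and 6 of 12 arrays. With the mean of its probes in place of the brightest, the change of Ctsa was 0.86.

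Ctsh encodes cathepsin H, a cysteine protease with aminopeptidase activity. Its log2 signals were 6.74, 6.95 and 6.68 in S42L cells with DHT, against 5.57, 5.84 and 5.48 in wild-type cells with DHT. With testosterone the log2 signals of Ctsh were 7.43, 7.17 and 7.29 in S42L cells, against 6.02, 5.08 and 5.58 in wild-type cells. The groups did not overlap under either androgen. The log2 change was 1.45 ± 0.14 (SE, adjusted p = 6.43e-06), or 2.73-fold. The wild-type signals were near background, where the lowest detected log2 value of an array was 4.94 to 5.17. The size of the Ctsh change is therefore uncertain. It ran from 1.01 to 1.87 over the 21 alternatives in processing, and Ctsh was called higher in each. A second Ctsh probe gave 0.95 ± 0.14 and was detected on every S42L array, on 0 of 3 wild-type arrays with DHT and on 2 of 3 with testosterone.

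Tpp1, tripeptidyl peptidase 1, removes tripeptides from the amino end of proteins. Its log2 signals were 8.83, 8.85 and 8.61 in S42L cells with DHT, against 8.11, 8.23 and 8.06 in wild-type cells with DHT. The testosterone arrays of Tpp1 read 8.88, 9.27 and 9.09 in S42L cells, against 8.14, 7.94 and 8.09 in wild-type cells. All 6 S42L arrays lay above all 6 wild-type arrays, and the log2 change was 0.82 ± 0.09 (SE, adjusted p = 1.37e-05), or 1.77-fold. This is the gene printed above without the motif.

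Ctsb, the abundant endopeptidase cathepsin B, went the other way. Its log2 signals were 12.41, 12.41 and 12.21 in S42L cells with DHT, against 12.74, 12.72 and 12.63 in wild-type cells with DHT. Under testosterone they were 12.58, 12.48 and 12.42 in S42L cells, against 12.82, 12.84 and 12.78 in wild-type cells. The S42L arrays were below the wild-type arrays without overlap, and the log2 change was -0.34 ± 0.07 (SE, adjusted p = 0.00201). Ctsl, cathepsin L, was higher by 0.24 ± 0.09 (SE, adjusted p = 0.0395), a call that ended without any 1 of 8 arrays (adjusted p 0.0519 to 0.0904). These were replicates 2 and 3 of S42L with DHT, 1 and 3 of wild-type with DHT, all of S42L with testosterone and 2 of wild-type with testosterone.  Not called were Lgmn, the asparaginyl endopeptidase legumain, at 0.04, the aspartic protease Ctsd, which carries TCACGTGA, at 0.04, and Ctsc, dipeptidyl peptidase 1, at -0.19. Ctsf, Ctsk, Ctss and Ctsz, all cysteine cathepsins, were detected on at most 1 of 12 arrays and have no measured change.

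**Figure D2:**
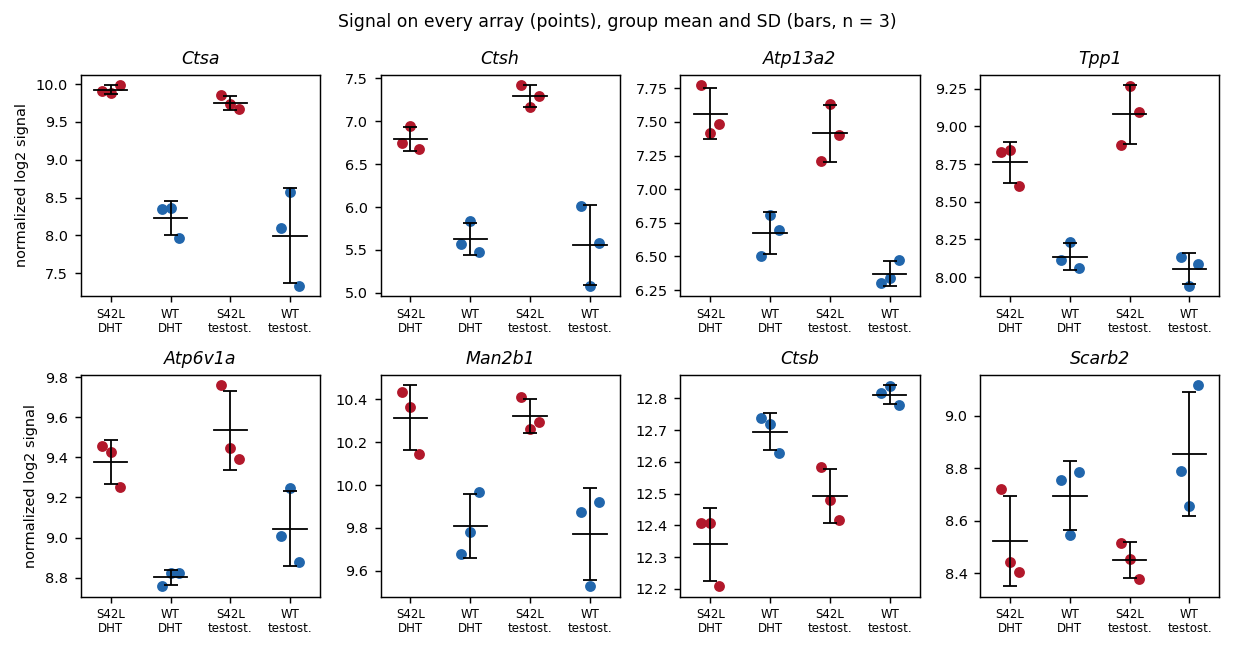
Normalized log2 signal on each of the 12 arrays (points; red, S42L; blue, wild-type) with the mean and SD of each group (black, n = 3), for the members with a called change of at least 0.5 and for Ctsb and Scarb2, the members called lower. Axes differ between panels and do not start at 0. In the first 6 panels every S42L array lies above every wild-type array, in the Ctsb panel every one lies below, and in the Scarb2 panel the lines overlap.

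Glycosidases and the sulfatase were higher in 6 of 9 measured genes and lower in none (66.7% called, against 37.8% of all tested probes). Their median log2 change was 0.35. Man2b1, lysosomal α-mannosidase, which trims N-glycans, had log2 signals of 10.44, 10.36 and 10.14 in S42L cells with DHT, against 9.68, 9.78 and 9.97 in wild-type cells with DHT. Under testosterone they were 10.41, 10.26 and 10.30 in S42L cells, against 9.87, 9.53 and 9.92 in wild-type cells. The lines did not overlap, and the log2 change was 0.53 ± 0.09 (SE, adjusted p = 0.00072). A second Man2b1 probe gave 0.57 ± 0.12.

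Ids, iduronate sulfatase, which acts on the sulfated sugar chains of proteoglycans, changed by 0.47 ± 0.08 and Naglu, which removes N-acetylglucosamine from heparan sulfate, by 0.42 ± 0.08, both without overlap of the lines. The log2 signals of Ids ran from 11.21 to 11.44 on the S42L arrays, against 10.70 to 10.99 on the wild-type arrays. Those of Naglu ran from 8.11 to 8.43 on the S42L arrays, against 7.60 to 7.98 on the wild-type arrays. Idua, which acts after Ids on the same chains, was not called at 0.29 ± 0.12 (SE, adjusted p = 0.0834). Gaa, the acid α-glucosidase that degrades glycogen, changed by 0.35 ± 0.07, and Neu1, the lysosomal sialidase, by 0.39 ± 0.10. Log2 signals of Gaa ran from 10.35 to 10.67 on the S42L arrays, against 10.10 to 10.26 on the wild-type arrays, without overlap. Those of Neu1 ran from 11.53 to 11.72 on the S42L arrays, against 11.04 to 11.71 on the wild-type arrays, and wild-type testosterone replicate 3 was the highest wild-type array. The Neu1 call ended with scaling to the median of tested probes (0.25, adjusted p = 0.122). Hexa, the α subunit of β-hexosaminidase, changed by 0.23 ± 0.08 (SE, adjusted p = 0.0325). The Hexa call ended without replicate 3 of S42L with DHT, 2 or 3 of wild-type with DHT or 3 of S42L with testosterone (adjusted p 0.0629 to 0.0849). Glb1, β-galactosidase, stood at -0.13 and Galc, galactosylceramidase, at -0.24, and neither was called. Without wild-type testosterone replicate 3, Galc was called lower at -0.44 (adjusted p = 0.0298). Idua was called without wild-type DHT replicate 3 (0.37, adjusted p = 0.0352) and without wild-type testosterone replicate 2 (0.37, adjusted p = 0.0295). Gla, α-galactosidase A, and Fuca1, α-fucosidase, were detected on at most 2 arrays.

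In the lipid group 3 of 6 genes were higher and none was lower (50% called, against 37.8% of all tested probes). Lipa, the acid lipase that frees cholesterol and fatty acids from lipoprotein esters, changed by 0.48 ± 0.12, and its second probe by 0.58 ± 0.11. Log2 signals of Lipa ran from 10.56 to 11.02 on the S42L arrays, against 10.01 to 10.78 on the wild-type arrays, where wild-type testosterone replicate 2 reached into the S42L range. Ppt1, a thioesterase that removes palmitate from proteins, changed by 0.39 ± 0.10. Psap, the precursor of the saposins that help sphingolipid hydrolases, changed by 0.33 ± 0.08, and its second probe by 0.41 ± 0.06. Log2 signals of Psap ran from 13.28 to 13.54 on the S42L arrays, against 12.91 to 13.26 on the wild-type arrays, without overlap, but its call ended with scaling to the median of tested probes (0.17, adjusted p = 0.114). The largest of the 3 adjusted p was 0.00894, for Ppt1. Smpd1, acid sphingomyelinase, stood at 0.21 ± 0.10 and was not called, although it was called without wild-type testosterone replicate 3 (0.29, adjusted p = 0.00496). Npc2, which hands cholesterol to the membrane transporter NPC1, stood at 0.06. Asah1, acid ceramidase, was not called by its brightest probe (-0.14 ± 0.07), whereas a second probe of the gene was called lower at -0.56 ± 0.10 (adjusted p = 0.000908).

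Of the 7 membrane proteins 4 were higher and 1 was lower (71.4% called, against 37.8% of all tested probes). Atp13a2, a P-type ATPase that exports polyamines from the lysosome, had log2 signals of 7.78, 7.42 and 7.48 in S42L cells with DHT, against 6.51, 6.81 and 6.70 in wild-type cells with DHT. For Atp13a2 under testosterone, the log2 signals were 7.21, 7.63 and 7.40 in S42L cells, against 6.30, 6.34 and 6.48 in wild-type cells. The lines did not overlap, and the log2 change was 0.97 ± 0.10 (SE, adjusted p = 1.03e-05), or 1.95-fold. Mcoln1, the calcium channel mucolipin 1, changed by 0.32 ± 0.08, and the major membrane glycoprotein Lamp1 by 0.30 ± 0.07, both without overlap. Log2 signals of Mcoln1 ran from 8.05 to 8.23 on the S42L arrays, against 7.64 to 8.01 on the wild-type arrays. Those of Lamp1 ran from 12.37 to 12.63 on the S42L arrays, against 12.22 to 12.27 on the wild-type arrays, and its call ended with scaling to the median of tested probes (0.14, adjusted p = 0.131). Lamp2, whose protein is the receptor of chaperone-mediated autophagy in one of its splice forms, was higher at 0.25 ± 0.08 (SE, adjusted p = 0.0328). Probes of Lamp2 disagreed by annotated transcript. Both probes of the first transcript were called (0.25 and 0.23), and the 3 tested probes of the second were not (0.03, 0.07 and 0.02). A dimmer probe of another annotated sequence, detected on 8 of 12 arrays, was not called either (-0.04). Which transcript encodes the receptor form was not determined here.

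Scarb2, the receptor that carries β-glucocerebrosidase to lysosomes, was lower in S42L cells by -0.29 ± 0.10 (SE, adjusted p = 0.031), with overlap of the lines. Its log2 signals ran from 8.38 to 8.72 on the S42L arrays, against 8.54 to 9.12 on the wild-type arrays. The calls of Lamp2 and Scarb2 were fragile. Lamp2 lost its call without any 1 of 9 arrays (adjusted p 0.0506 to 0.0828), namely all 12 but S42L DHT replicate 1, wild-type DHT replicate 1 and wild-type testosterone replicate 3. Scarb2 lost its call without any 1 of 7 (adjusted p 0.0511 to 0.0721), namely replicates 2 and 3 of S42L with DHT, 1 and 3 of wild-type with DHT, 2 and 3 of S42L with testosterone and 3 of wild-type with testosterone. Cd63, a tetraspanin, stood at 0.09, and the cholesterol transporter gene Npc1 at 0.12 ± 0.09, and neither was called. A second, slightly dimmer Npc1 probe was called lower at -0.48 ± 0.07 (adjusted p = 0.000269) and another was not called at 0.19, so the direction of Npc1 is unsettled. In all, 14 members had 27 further tested probes, while 37.8% of all tested probes were called. Of the 27, 9 were called in the direction of the brightest one, 0 against it and 2, those of Asah1 and Npc1, where the brightest was not called. Further probes of an uncalled member cannot agree or disagree with a call. Among the 9, the Ctsa probe at 0.82 and the second Ctsh probe passed the detection filter only through S42L arrays, where they were high.

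In the proton pump 2 of 6 genes were higher and none lower (33.3% called, against 37.8% of all tested probes). Their median log2 change was -0.01. Atp6v1a, the catalytic subunit that hydrolyses ATP, had log2 signals of 9.46, 9.42 and 9.25 in S42L cells with DHT, against 8.76, 8.82 and 8.82 in wild-type cells with DHT. Under testosterone they were 9.76, 9.45 and 9.39 in S42L cells, against 9.01, 9.25 and 8.88 in wild-type cells. The lines did not overlap, and the log2 change was 0.53 ± 0.09 (SE, adjusted p = 0.000552). Atp6v0d1, a subunit of the stalk that joins the ATPase to the membrane ring, changed by 0.40 ± 0.08 (SE, adjusted p = 0.00281), with log2 signals of 10.70 to 11.02 on the S42L arrays, against 10.19 to 10.52 on the wild-type arrays, and 2 of its 3 other probes were called higher too (0.43 and 0.45), while the last, at 0.29, was not. The others were Atp6ap1, an accessory protein of the pump, at 0.00011, Atp6v1b2, the non-catalytic B subunit, at -0.02, Atp6v1h, a regulatory subunit, at -0.11, and Atp6v0a1, of the membrane part, at -0.16. Atp6v0a1 was called lower without wild-type testosterone replicate 3 (-0.22, adjusted p = 0.0285), and it and Atp6v1h were called lower with scaling to the median of tested probes (-0.29 and -0.25).

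Tfeb, whose product binds the motif printed above, was near background and detected on 11 of 12 arrays. Its log2 signals ran from 5.24 to 5.68 on the S42L arrays, against 5.16 to 5.94 on the wild-type arrays. Tfeb was not called at -0.05 ± 0.12 (SE, adjusted p = 0.783), and its 95% confidence interval ran from -0.30 to 0.21.

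**Figure D3:**
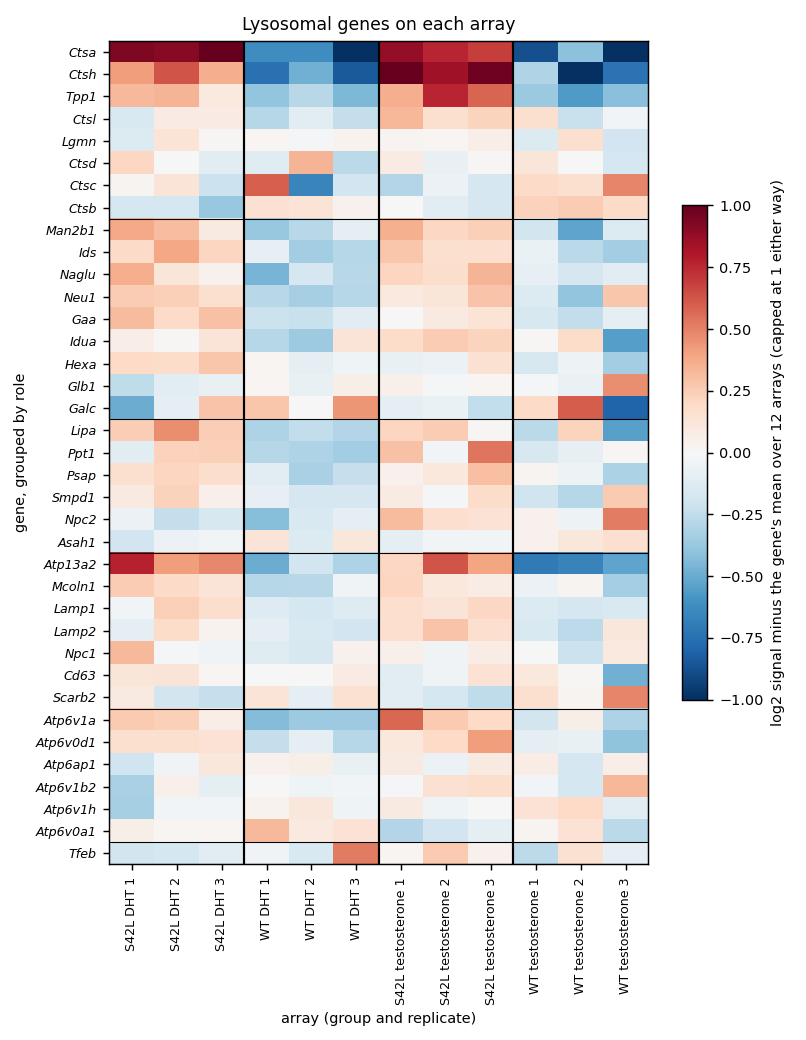
Each of the 37 measured lysosomal genes (rows, by role) on each of the 12 arrays (columns), as log2 signal minus the gene's mean over all arrays. Red cells in the S42L columns and blue cells in the wild-type columns stand out for Ctsa, Ctsh, Tpp1 and Atp13a2, and most of the proton pump rows are pale.

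Under DHT, with differences from 3 arrays against 3, 15 members were higher in S42L cells and 1 was lower, or 43.2% of 37. Of all tested probes 23% were called (11.7% higher and 11.3% lower). The lines did not overlap in 20 members, against 42.7% of all tested probes. Under testosterone 10 were higher and 2 lower, or 32.4%, against 23.8% of all tested probes (12.3% higher and 11.5% lower). There the lines did not overlap in 20 members, against 37.9%. With only probes detected on all 12 arrays tested, 48.6% of members were called under DHT, against 29.6% of such probes. Under testosterone these shares lay closer together, at 34.3% and 30.6%. The DHT count dropped to 9 (24.3%) without S42L DHT replicate 2 or wild-type DHT replicate 1, against 17% and 17.4% of all tested probes. It dropped to 10 (27%) without wild-type DHT replicate 2, against 16.8%. The testosterone count dropped to 7 (18.9%) without S42L testosterone replicate 1 or 3, against 17.3% and 17.1%. The differences under the androgens come from separate arrays, but their tests share 1 estimate of the spread over all 12 arrays. The calls under DHT and testosterone are therefore not independent. In the same direction under both androgens 10 members were called (27%, against 16.4% of all tested probes). In opposite directions 0 were called, against 0.0205%. The 10 were Ctsa, Ctsh, Tpp1, Atp13a2, Man2b1, Ids, Naglu, Atp6v1a and Atp6v0d1 (higher) and Ctsb (lower).

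Called under DHT only were 6 members, Gaa, Neu1, Lipa, Ppt1, Psap and Mcoln1, and called under testosterone only were 2, Lamp1 and Scarb2. None of these 8 was called in the test of the difference between the androgens. The sign was the same under both in 32 of 37 members, against 80.1% of all named genes. Across the 37 genes, which are not independent replicates, the 2 sets of differences correlated with Pearson's r = 0.907 and Spearman's rho = 0.89.

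**Figure D4:**
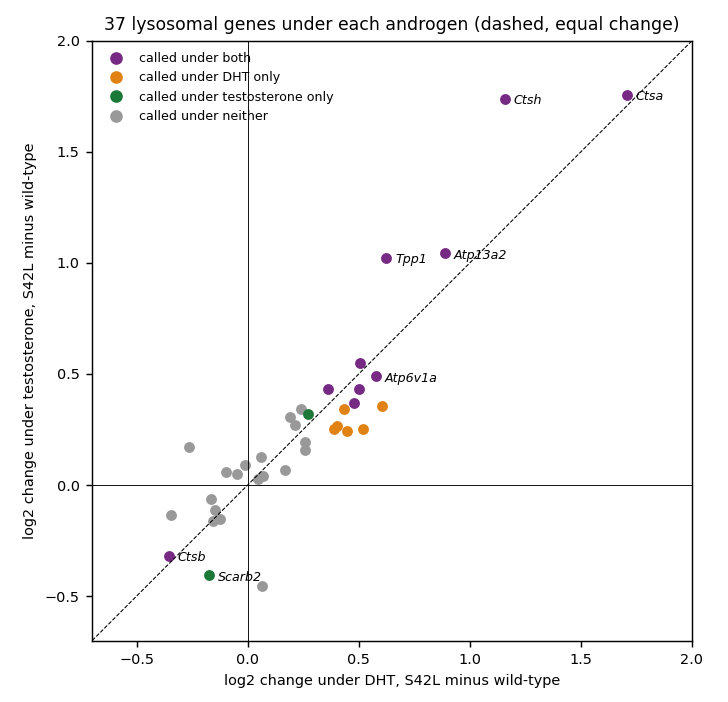
Log2 change between S42L and wild-type cells under DHT (x) and under testosterone (y) for the 37 measured lysosomal genes, coloured by the androgen under which a gene was called. Most points lie along the dashed line of equal change, with Ctsh (1.16 and 1.74) and Tpp1 (0.62 and 1.02) above it. The dim genes Tfeb (-0.27 and 0.17), above the line, and Ctsc (0.07 and -0.45), below it, depart from it too.

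That difference, the interaction of variant and androgen, was called for 0 of 37 members in limma, against 0.00513% of all tested probes. At an unadjusted p under 0.05 there was 1, Tpp1, at -0.40 ± 0.17 (adjusted p = 0.99997), named after its value was seen. For Ctsh the interaction was -0.58, with a 95% confidence interval of -1.18 to 0.02. The unadjusted 95% confidence intervals of the members reached 0.39 to either side in the median, which is no detection limit, and a p that misses the threshold does not show that the androgens act alike.

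The comparison of DHT with testosterone asks whether the androgens differ in effect, but each chip held the arrays of a single androgen, so the effects of chip and androgen cannot be told apart. In S42L cells 0 of 37 members were called in limma, against 0.267% of all tested probes (0.0411% higher and 0.226% lower with DHT). In wild-type cells 0 were called, against 0.0719% (0.0205% higher and 0.0513% lower). At an unadjusted p under 0.05 there were 3 in S42L cells and 2 in wild-type cells, named after their values were seen. In S42L cells these were Ctsh (-0.51 ± 0.20), Npc2 (-0.36 ± 0.15) and Tpp1 (-0.32 ± 0.12), with adjusted p from 0.285 to 0.325. In wild-type cells they were Npc2 (-0.39 ± 0.15) and Atp13a2 (0.30 ± 0.14), with adjusted p of 0.311 and 0.418. The log2 differences of all 37 members lay between -0.51 and 0.22 in S42L cells and between -0.39 and 0.30 in wild-type cells, with 95% confidence intervals that reached 0.28 to either side in the median.

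Other lysosomal genes were listed by role, with earlier results of these data known. Of 61 listed, 41 were measured, with 13 higher in S42L cells, 3 lower and 25 not called, and a median log2 change of 0.08. The called share was 39%, near the 37.8% of all tested probes and the 40.1% of all named genes. Among 15 measured hydrolases 5 were higher and 2 lower. Dnase2a, the acid DNase, stood at 1.78 ± 0.09, the aspartic protease gene Ctse at 1.11 ± 0.10, Man2b2, an α-mannosidase, at 0.60 ± 0.11 and Gm2a, the activator of ganglioside degradation, at 0.49 ± 0.06, against Sgsh, a heparan sulfatase, at -0.46 ± 0.07. Of 12 other pump genes 3 were higher, led by Atp6v0e at 0.42 ± 0.07, and 1 was lower, Atp6v1c1, at -0.31 ± 0.07. Of 14 other membrane and export genes 5 were higher and none lower. They included Ctns, the cystine exporter cystinosin, at 0.96 ± 0.16, and Clcn7, a chloride-proton exchanger, with its partner Ostm1, at 0.74 ± 0.09 and 0.37 ± 0.09.

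The called shares of genes for delivery to the lysosome (30%), autophagy (36.8%) and regulation (40%) were also near or below the 37.8% of all tested probes, and the genes named are those with large changes. Genes that deliver enzymes to the lysosome were higher in 5 and lower in 1 of 20. Sort1, the sorting receptor sortilin, stood at 0.99 ± 0.09, Vps33a, of the fusion machinery, at 0.65 ± 0.07, and Gnptg and Nagpa, which build the mannose 6-phosphate tag, at 0.53 ± 0.09 and 0.53 ± 0.13. Nagpa was detected on 3 of 6 wild-type arrays. Autophagy genes were higher in 7 and lower in none of 19, among them Map1lc3b, which coats autophagosomes, at 0.85 ± 0.09 and the initiating kinase Ulk1 at 0.73 ± 0.12. Of 15 regulators of lysosomal genes 5 were higher and 1 lower, with the mTORC1 inhibitor subunit Tsc1 at 0.58 ± 0.13, the kinase gene Mtor at 0.34 ± 0.08 and the calcineurin subunit Ppp3cb at -0.73 ± 0.07. Among 3 measured cathepsin inhibitors, cystatin C, Cst3, was higher at 0.31 ± 0.09 and Serpinb6a lower at -0.35 ± 0.08.

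Markers of cell types moved with the lines as well, and their part in the lysosomal differences was not tested. The counts below stand against 37.8% of all tested probes called, 18.6% higher and 19.3% lower, and several lists have few measured genes. In bulk RNA, fewer cells of a type and less RNA per cell cannot be told apart. Of 14 proximal tubule markers on the array 9 were measured and 8 were higher in S42L cells, led by Cldn2 at 3.17 ± 0.10, Mme at 1.32 ± 0.10 and Aqp1 at 1.18 ± 0.11. The defining markers Cubn, Slc34a1, Slc22a6 and Slc22a8 were detected on 0 of 12 arrays. Summed normalized signals of the 14 ran from 16730 to 20140 in S42L cells with DHT, against 10950 to 11010 in wild-type cells with DHT, and from 21340 to 22640 in S42L cells with testosterone, against 11520 to 12800 in wild-type cells with testosterone. For macrophages, which are rich in lysosomes, 2 of 9 markers were measured, Csf1r (higher, 1.99-fold) and Cd14 (0.21 ± 0.08, not called). Ptprc, Aif1, Tyrobp and Fcer1g were detected on 0 arrays, and the 9 summed to 1443 to 1724 in S42L cells with DHT, against 1220 to 1246 in wild-type cells with DHT, and to 1687 to 1843 in S42L cells with testosterone, against 1141 to 1265 in wild-type cells with testosterone. In the distal nephron list 4 of 7 measured markers were higher and none lower, and the 10 listed summed to 9103 to 9843 on S42L arrays, against 6603 to 7094 on wild-type arrays. Of 4 measured endothelial markers 3 were higher and 1 (Kdr) lower, with Emcn detected on 0 arrays, and the 8 listed summed to 1432 to 1718 on S42L arrays, against 751 to 1057 on wild-type arrays. Of 3 measured fibroblast markers 1 was higher, Dcn, at 4.79 ± 0.10, with Lum, Pdgfra, Pdgfrb and Thy1 detected on 0 arrays, and the 10 listed summed to 12360 to 14500 on S42L arrays, against 11620 to 13560 on wild-type arrays. The mouse Shbg probe was detected on 0 of 12 arrays and, since the transgene is human, checks nothing about the labels.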

How the data were processed

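The members and gene lists were chosen with earlier results of these data known. Total RNA from 12 samples was hybridised to bead arrays of the Illumina Mouse WG-6 v2.0 type. Per the file headers, the deposited table holds an average bead signal for each probe, a linear intensity that is neither background-subtracted nor normalized, and a detection p-value. The authors used BeadStudio, per the submitters' processing notes, and its version is not given in the sources used here. Another deposited table of intensity values, from its values background-subtracted and brought to near equal quantiles (medians 6.8 to 6.9, minimum -30.1, scale linear, method unknown), served as an alternative. It was floored at 16 before log2.

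The neqc steps of limma 3.58.1 (R 4.3.3) were applied, namely normexp background correction with negative control levels inferred from detection p-values, an added offset of 16, quantile normalization and log2. Quantile normalization removes a shift of most transcripts in one direction. Per array 17314 to 19204 of 45281 probes were detected, and the number of arrays limits the precision. Probes detected (p under 0.05) on at least 3 arrays were tested, 19480 in all. lmFit and eBayes used 1 coefficient per group over 12 arrays, with two-sided tests and Benjamini-Hochberg adjustment over all tested probes (8 residual and 4.36 prior degrees of freedom). Each gene is represented by its brightest tested probe (highest mean signal). The platform annotation named 1 gene for 34885 probes, several for 18 and none for 10378. All 43 member symbols matched RefSeq by gene identifier.

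Values on every array are given for members called over both androgens with a log2 change of at least 0.5, and Ctsb was added as a member called lower. Androgen contrasts and probes named outside this rule were chosen after their values were seen. Of other lists at most 6 called genes each are named, those with the largest changes. Marker sums are of the brightest probe of each gene, on the linear scale. Alternatives were median scaling, the offset, the filter, the second table, the mean of a gene's probes, a stricter threshold, a replicate block and leaving out each array. The fit was tested on simulated data.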

Additional observations from a re-analysis of the deposited data

How the results depend on the processing

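Over both androgens 14 of the 21 called members were called under all 21 alternatives, and no called member changed sign. Ctsl, Hexa, Lamp2 and Scarb2, with adjusted p of 0.031 to 0.0395, lost their calls under several, the stricter threshold among them. With arrays scaled to the median of all probes 19 members were higher and 1 lower, and the share of higher among called probes moved to 69.9%, against 49.1% with quantile normalization. Scaling to the median of the tested probes, an alternative chosen after seeing the data, gave 14 and 5, with 39.2% of called probes higher. It ended the calls of Neu1 (0.25, adjusted p = 0.122), Psap (0.17, 0.114), Lamp1 (0.14, 0.131), Hexa and Lamp2 and made Asah1 (-0.30), Atp6v0a1 (-0.29) and Atp6v1h (-0.25) lower. Of members 54.1% were called with the first scaling, against 34.2% of all tested probes, and 51.4% with the other, against 40%. The median log2 change of all tested probes was 0.0756 with the first scaling and -0.0829 with the other, against -0.0156. The cause was not tested.

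At an adjusted p under 0.01, 17 members were called over both androgens (45.9%, against 24.9% of all tested probes). The counts were 8 under DHT (21.6%, against 12.5%) and 5 under testosterone (13.5%, against 12.5%). Leaving out 1 array gave 17 to 23 called members over both androgens, 9 to 18 under DHT and 7 to 12 under testosterone. It gave 0 for the androgen contrasts and the interaction, which stayed at 0 under the other alternatives too. With 1 array left out, 33% to 40.1% of all tested probes were called over both androgens, against 45.9% to 62.2% of members. The probe shares were 16.8% to 28.3% under DHT and 15.9% to 24.9% under testosterone. The members' shares there were 24.3% to 48.6% and 18.9% to 32.4%. The replicate numbers were not taken to pair the samples, since deviations of same-numbered arrays from their group means correlated at -0.0471 to 0.122. With the replicate block, 18 members were called over both androgens (48.6%, against 37% of all tested probes). Under DHT 14 were called (37.8%, against 22%) and under testosterone 10 (27%, against 22.6%). By these deviations, 3 of 12 arrays correlated best with an array of their own number. Of 340 pairs of an uncalled member and a setting that left it uncalled, 23 changed sign. The 340 include pairs with the main setting itself, which cannot change sign. Dim members (Tfeb, detected on 11 arrays, Ctsc, on 7, and Ctsh in wild-type cells) are limited by signal over background.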
